A study of Mus musculus with 4 samples.

Results

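The genes described here encode digestive enzymes that sit on the brush border, the carpet of microvilli on the luminal face of the intestinal absorptive cell. They are the 4 disaccharidase genes Lct, Sis, Mgam and Treh, the 4 peptidase genes Anpep, Dpp4, Enpep and Mme, the alkaline phosphatase gene Alpi, and Tmprss15, which encodes the enzyme that switches on pancreatic trypsinogen. The 10 genes were chosen by name from a list of brush border enzymes, with earlier results of these data known. They are 10 of the 37074 gene names on the array, and 18 of its 56605 probes carry one of those names. Lct, Treh, Anpep, Alpi and Tmprss15 have 1 probe each, and the other 5 genes have 2 to 4.

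RNA came from mechanically scraped epithelium of mouse jejunum and ileum and was read on 1-colour (Cy3) Agilent arrays. All mice had a C57BL/6J background, were aged 9 weeks and were Tcrbd-/-, that is, they lacked both the beta and the delta chain genes of the T cell receptor and hence alpha-beta and gamma-delta T cells. They were DAOwt/wt, here called wild-type, or DAOG181R/G181R, here called G181R, a change of 1 amino acid in D-amino acid oxidase, an enzyme that breaks down D-amino acids. The groups were wild-type jejunum, G181R jejunum, wild-type ileum and G181R ileum. Each group was 1 array of RNA pooled from 5 mice, so that the data hold no spread between animals, and no test was run. Every group carried the T cell receptor deletion, so none has intact T cells. In scraped tissue read in bulk, fewer cells of a type and less RNA per cell cannot be told apart.

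Starch, milk sugar and dietary protein are cut to small fragments in the gut lumen, and the last cuts are made by enzymes anchored in the brush border membrane. Lactase (Lct) splits lactose, sucrase-isomaltase (Sis) and maltase-glucoamylase (Mgam) finish the digestion of sucrose and starch, and trehalase (Treh) splits trehalose. Aminopeptidase N (Anpep) and aminopeptidase A (Enpep) remove single residues from the amino end of peptides, dipeptidyl peptidase 4 (Dpp4) removes dipeptides that end in proline or alanine, and neprilysin (Mme) cuts inside short peptides. Intestinal alkaline phosphatase (Alpi) removes phosphate groups, among others from bacterial lipopolysaccharide. Enteropeptidase (Tmprss15) is best known as a product of the duodenum and proximal jejunum, and lactase is known to be strongest in the jejunum and weak in the distal ileum.

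The promoters of the 5 genes with lower signal in ileum at every probe by the fold used below are shown together with that of Anpep, which differed little between the tissues, because the contrast between these genes is the main pattern in the data. Each line gives the 250 bases before the annotated start of the gene, from RefSeq on build GRCm38.p6, 5′ to 3′ on the strand of the gene. Capitals mark matches on either strand to 3 short words taken from the motifs of intestinal transcription factors. They are TTTAT (a core of CDX), GATAA (a core of GATA factors) and CAAAGT (a half-site of HNF4). All 10 genes had a promoter in the RefSeq set.
Lct, chr1:128328319-128328568, minus strand: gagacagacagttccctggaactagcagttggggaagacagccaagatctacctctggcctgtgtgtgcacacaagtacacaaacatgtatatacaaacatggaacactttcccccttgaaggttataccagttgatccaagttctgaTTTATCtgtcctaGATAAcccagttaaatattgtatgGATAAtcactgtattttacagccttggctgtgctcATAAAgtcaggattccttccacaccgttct
Sis, chr3:72967864-72968113, minus strand: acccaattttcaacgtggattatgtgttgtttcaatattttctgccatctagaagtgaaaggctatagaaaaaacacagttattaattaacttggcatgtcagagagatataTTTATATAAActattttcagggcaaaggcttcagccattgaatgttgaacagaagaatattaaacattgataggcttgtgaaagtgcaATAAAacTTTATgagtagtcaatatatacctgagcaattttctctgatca
Treh, chr9:44672983-44673232, plus strand: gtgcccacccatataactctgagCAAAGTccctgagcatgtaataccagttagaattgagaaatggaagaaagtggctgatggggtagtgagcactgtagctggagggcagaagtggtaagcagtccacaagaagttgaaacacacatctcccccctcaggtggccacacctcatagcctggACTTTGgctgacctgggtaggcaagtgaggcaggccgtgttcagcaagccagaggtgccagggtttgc
Alpi, chr1:87101607-87101856, minus strand: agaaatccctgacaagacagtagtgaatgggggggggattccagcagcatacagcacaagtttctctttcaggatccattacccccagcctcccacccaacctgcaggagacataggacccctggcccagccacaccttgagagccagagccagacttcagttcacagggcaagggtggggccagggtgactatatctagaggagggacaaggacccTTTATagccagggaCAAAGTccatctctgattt
Tmprss15, chr16:79091098-79091347, minus strand: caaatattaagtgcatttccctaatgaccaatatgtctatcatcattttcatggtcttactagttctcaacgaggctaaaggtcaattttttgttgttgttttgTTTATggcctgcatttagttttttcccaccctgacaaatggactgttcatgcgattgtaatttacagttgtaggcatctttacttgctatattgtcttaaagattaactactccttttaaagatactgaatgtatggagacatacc
Anpep, chr7:79848211-79848460, minus strand: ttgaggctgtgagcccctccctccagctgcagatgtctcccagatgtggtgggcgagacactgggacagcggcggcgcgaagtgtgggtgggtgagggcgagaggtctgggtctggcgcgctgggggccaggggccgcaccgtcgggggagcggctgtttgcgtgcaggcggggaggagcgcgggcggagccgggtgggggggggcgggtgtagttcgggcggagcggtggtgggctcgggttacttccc
The Lct window held 3 GATA words and 2 CDX words, 1 of each sharing 4 bases, at 30 to 102 bases before the start. The Sis window held 4 CDX words. Treh had 2 HNF4 words, Alpi 1 CDX and 1 HNF4 word, and Tmprss15 1 CDX word. The Anpep window held none of the 3 words, and 72.8% of its bases were G or C, against 31.6% to 54.4% in the other windows shown and a median of 52.4% over all 32851 promoter windows. The words are common. Of all windows, 37.3% held the CDX word, 22.6% the GATA word and 12.6% the HNF4 word. Among the promoters not shown, Mgam held 2 CDX and 2 GATA words, Dpp4 and Enpep 1 of each, and the 3 windows listed for Mme 1 HNF4 word between them. Of their bases, 42.4% in Mgam, 43.6% in Dpp4 and 52.4% in Enpep were G or C. The 3 Mme windows had 45.6%, 73.2% and 73.6%. A match describes the letters and is not evidence of binding.

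Processed signals are fluorescence values in arbitrary units with background removed. Log2 differences were taken after each array was divided by the 75th percentile of its own signals, which was 156.1 to 184.8. Between 57.4% and 60.4% of probes were well above background on an array, and no probe was saturated. From 295 to 296 probes printed as 10 spots on each array, the SD of a log2 difference that comes from the spots alone had a median of 0.056 to 0.058 and a 95th percentile of 0.103 to 0.116. That error is technical and does not include mice. The tissue labels matched regional markers. The summed level of 6 jejunal markers, in multiples of the 75th percentile, was 1720 and 1500 in the jejunal groups and 39.5 and 42.4 in the ileal groups, while that of 8 ileal markers was 206 and 205 against 1760 and 1530. A gene with several probes is represented in counts by its brightest probe, and levels of different probes are not compared with each other.

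**Figure D1:**
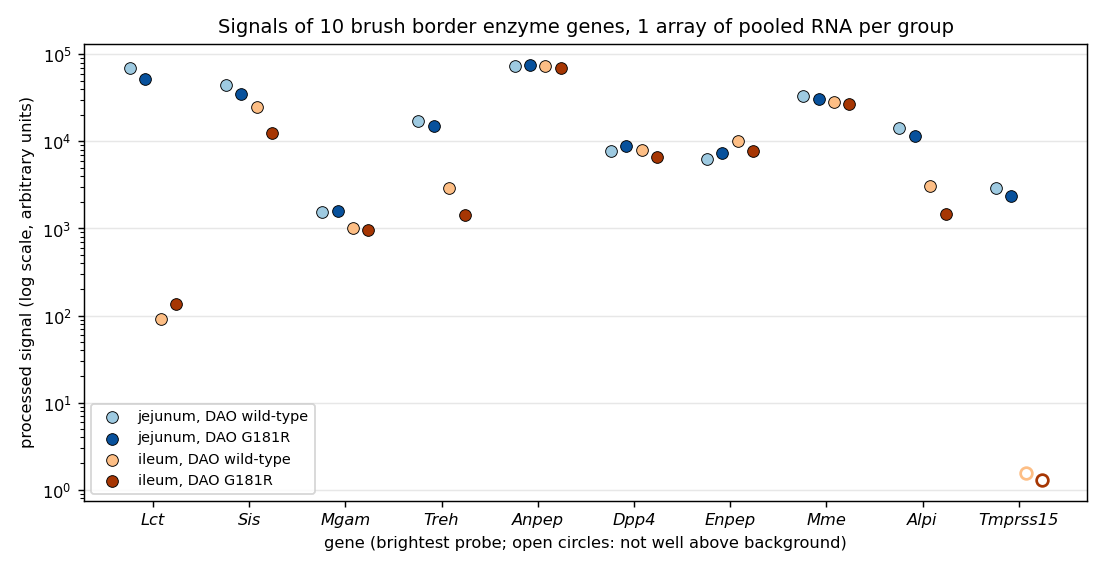
Processed signal (log scale, arbitrary units) of the brightest probe of each of the 10 genes, with 1 point per group of 5 pooled mice. Lct and Tmprss15 are far lower in ileum than in jejunum, Sis, Treh and Alpi are lower by less, and Anpep lies between 69636.7 and 75937.0 in all 4 groups.

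The first comparison asks how the enzymes are distributed along the small intestine. Lactase, trehalase, alkaline phosphatase and sucrase-isomaltase had lower signal in ileum than in jejunum in both genotypes, by 909.9-fold for Lct down to 2.09-fold for Sis in wild-type mice, and enteropeptidase was not well above background in ileum at all. The peptidases Anpep, Dpp4 and Enpep and the disaccharidase Mgam differed by less than 2-fold. Neprilysin gave conflicting readings at its 4 probes. In wild-type mice 4 of the 9 genes measured in both tissues were at least 2-fold lower in ileum and none was higher, with Tmprss15 as a further gene seen in jejunum only. Of all 20751 gene names measured there, 16.5% differed at least 2-fold in either direction and 9.12% were at least 2-fold lower. In G181R mice the same 4 of 9 genes were at least 2-fold lower, where 16.0% of 21474 names differed and 8.73% were lower. The median log2 difference of the measured enzymes was -0.87 in wild-type and -0.86 in G181R mice, beside -0.05 and -0.03 over all names.

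Lactase had the largest difference among the 9 genes measured in both tissues; Tmprss15, bounded below, cannot be ranked against it. The Lct probe (chr1:130181389-130181448, mm9, minus strand) had a signal of 69631.5 in wild-type jejunum, 51730.5 in G181R jejunum, 90.6 in wild-type ileum and 133.9 in G181R ileum. Both jejunal groups were far above both ileal groups, which were nonetheless well above background. The difference was -9.83 on the log2 scale in wild-type mice (909.9-fold lower) and -8.73 in G181R mice (424-fold lower). In wild-type mice no other of the 20751 measured names was as far down in ileum, and in G181R mice Lct ranked 2 of 21474. The jejunal markers, summed above, were lower in ileum too, and their part in the Lct difference was not tested.

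Trehalase came next among the disaccharidases. The Treh probe (chr9:44494328-44494387, plus strand) had signals of 17067.8 and 14899.5 in wild-type and G181R jejunum and 2922.1 and 1424.0 in wild-type and G181R ileum. The tissues did not overlap, and ileum was lower by 6.92-fold in wild-type (log2 -2.79) and by 11.47-fold in G181R mice (-3.52). Of the measured names, 1.12% were at least as far down as Treh in wild-type mice and 0.643% in G181R mice.

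Sucrase-isomaltase was lower in ileum at both of its probes, but by different amounts. The brighter Sis probe (chr3:72692810-72692869, minus strand) read 43973.1 in wild-type jejunum, 34653.5 in G181R jejunum, 24940.5 in wild-type ileum and 12619.7 in G181R ileum. Every ileal value was below every jejunal one, by 2.09-fold in wild-type and 3.01-fold in G181R mice (log2 -1.06 and -1.59). The wild-type value was short of 2-fold with quantile normalization (-0.92) and with the 75th percentile of probes above background on all arrays (-0.998), so that 3 genes in place of 4 passed there. A second Sis probe (chr3:72754482-72754541), which lies nearer the start of this minus-strand gene, read 5395.6, 3504.8, 1921.1 and 518.3 in the same order of groups. There ileum was 3.33-fold lower in wild-type and 7.41-fold lower in G181R mice.

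Mgam, the other starch-digesting enzyme, was the flattest disaccharidase. Its brighter probe (chr6:40687061-40687120, plus strand) read 1559.6 and 1607.9 in wild-type and G181R jejunum and 1013.2 and 972.1 in wild-type and G181R ileum. Both ileal values were lower, by 1.82-fold and 1.81-fold (log2 -0.87 and -0.86). Its second probe, whose 60 bases are placed across 680 bases of the genome (chr6:40607491-40608170), gave -0.73 and -0.80. Of all measured names, 11.6% were at least as far down in wild-type ileum.

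The peptidases were nearly level along the gut at their brightest probes. Anpep (chr7:86966716-86966775, minus strand) read 73894.3 and 75937.0 in wild-type and G181R jejunum and 74431.1 and 69636.7 in wild-type and G181R ileum. Its tissue differences were -0.23 and -0.26, the smallest in size among the 10 genes in wild-type mice after Dpp4. Dpp4 (chr2:62170062-62170121, minus strand) read 7656.5 and 8945.4 in jejunum and 7898.7 and 6601.9 in ileum, wild-type first. Its brightest probe gave -0.20 in wild-type and -0.57 in G181R mice, and its other probes gave -0.36 and -0.52 in wild-type and -0.64 and -0.95 in G181R mice, so that all 3 probes were on the lower side in ileum.

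Enpep was the one gene with higher signal in ileum, and this in wild-type mice only. Its brighter probe (chr3:128972910-128972969, minus strand) read 6245.5 in wild-type jejunum, 7327.6 in G181R jejunum, 10003.8 in wild-type ileum and 7844.7 in G181R ileum. The highest value was that of wild-type ileum and the lowest that of wild-type jejunum. In wild-type mice the difference was 0.44 (1.35-fold higher in ileum), with 0.23 at the second probe. In G181R mice it was -0.03, less than the spot error, and turned to 0.05 with quantile normalization; the second probe gave -0.41.

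Neprilysin is the gene for which the choice of probe decides the value. The first 30 of the 60 bases of each probe are shown, because the probes carry the disagreement; they are in lower case throughout, numbered from the brightest to the dimmest, with mm9 positions.
Mme probe 1, chr3:63188148-63188625, plus strand: gggtgagtatgggagacttttggtatagca
Mme probe 2, chr3:63187228-63187287, plus strand: gttgtttctatgactagttgactgttccaa
Mme probe 3, chr3:63185750-63185809, plus strand: aacactgtagctttctgccatcatcatata
Mme probe 4, chr3:63148482-63148541, plus strand: catcgggaatgtgagggtagtctggcctat
In genome order along the plus strand the sequence is probe 4, probe 3, probe 2 and probe 1. Probes 2 to 4 are placed on 60 genome bases each, and probe 1 on 478, so that its 60 bases are not contiguous in the genome. Probes 2 and 3 are assigned to 1 RefSeq transcript, and probes 1 and 4 to different Ensembl transcripts. The exons these probes fall in were not looked up here.

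At probe 1 the Mme signal was nearly level, at 33138.4 in wild-type jejunum, 30905.3 in G181R jejunum, 28116.2 in wild-type ileum and 26979.7 in G181R ileum. Its tissue differences were -0.48 and -0.33 in wild-type and G181R mice. At probe 2 the same groups read 4677.3, 3573.3, 403.6 and 134.5. Here the tissues were far apart, with ileum 13.7-fold lower in wild-type and 29.1-fold lower in G181R mice (log2 -3.78 and -4.86). Probe 3 read 2151.8, 1815.6, 208.7 and 70.8, which is 12.2-fold and 28.1-fold lower. Probe 4 read 846.0 and 809.5 in jejunum and 16.7 in wild-type ileum, 60.0-fold lower, and was not well above background in G181R ileum, at least 144-fold lower.

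Probes 2 and 3 thus gave almost the same tissue differences, probe 4 a larger one, and probe 1 a small one. Taking the mean of the 4 probes in place of the brightest moved the wild-type difference of Mme from -0.48 to -3.44. Which probe reports the total Mme mRNA was not tested.

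**Figure D2:**
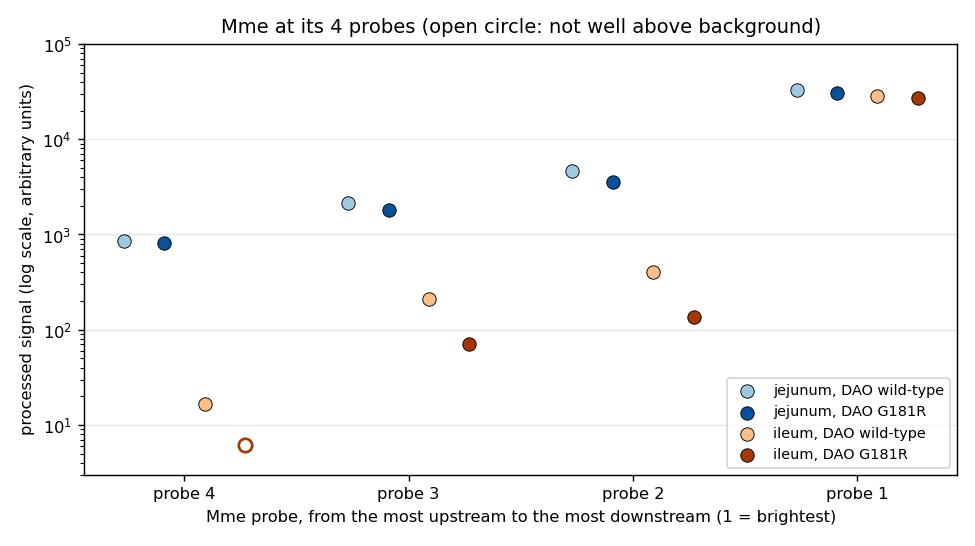
Processed signal (log scale, arbitrary units) of the 4 Mme probes, from the most upstream (left) to the most downstream (right) in the genome, with 1 point per group. The ileal groups lie far below the jejunal ones at probes 2, 3 and 4 and lie beside them at probe 1.

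The phosphatase and the zymogen activator were lower in ileum as well. Alpi (chr1:88994890-88994949, minus strand) read 14220.7 and 11498.6 in wild-type and G181R jejunum and 3096.6 and 1468.0 in wild-type and G181R ileum. Ileum was 5.44-fold lower in wild-type and 8.59-fold lower in G181R mice (log2 -2.44 and -3.10). Tmprss15 (chr16:78953959-78954018, minus strand) read 2923.6 and 2351.1 in jejunum and 1.54 and 1.29 in ileum, where it was not well above background in either genotype. It was therefore at least 481-fold lower in wild-type ileum and at least 422-fold lower in G181R ileum, a bound set by the lowest signal that counts as well above background (5.83 to 7.36 on the 4 arrays).

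The substrate of enteropeptidase, trypsinogen, is made in the exocrine pancreas. Of 17 genes for enzymes and cofactors of pancreatic juice on the array, Prss1, Try4, Try5, Cpa1, Cpb1, Pnlip, Amy2a5 and Amy2b were not well above background on any array, and 7 were measured in each comparison. Clps, pancreatic colipase, had signals of 1685.3 and 1921.4 in wild-type and G181R jejunum and 6712.7 and 4977.7 in wild-type and G181R ileum, and was at 1.75 and 1.24 between tissues. Ctrl, a chymotrypsin-like protease, was at 1.16 in wild-type and -0.83 in G181R mice. Prss2, a trypsinogen gene, was well above background in G181R ileum only, with a low signal of 25.8. It was at least 3.78-fold higher there than in wild-type ileum.

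**Figure D3:**
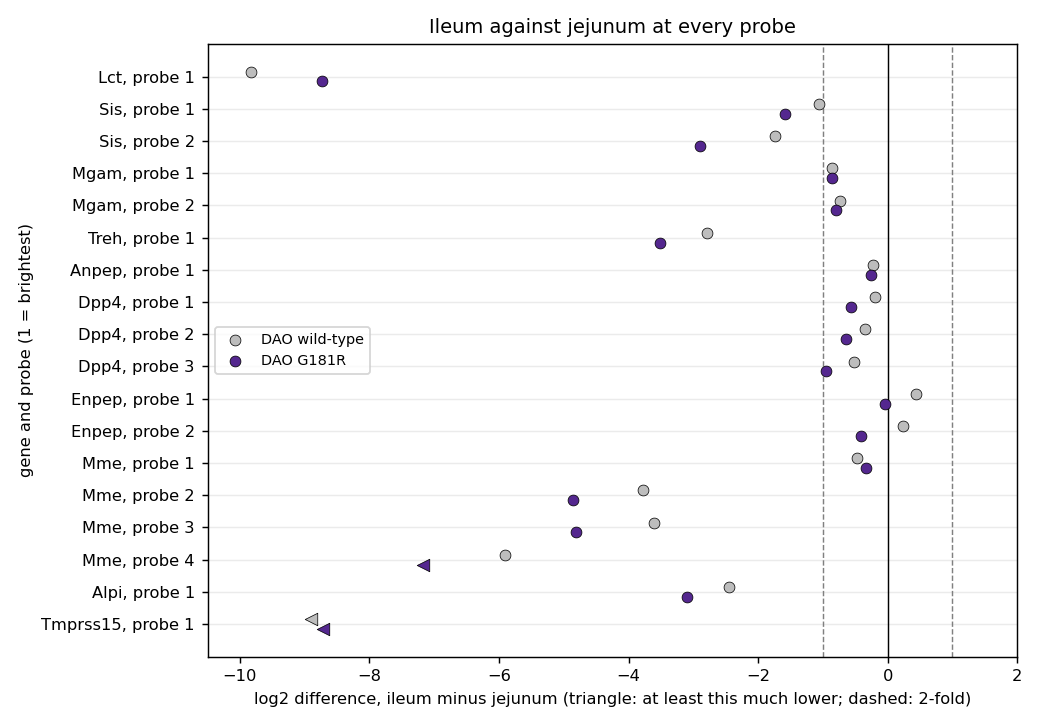
Log2 difference of ileum minus jejunum at each of the 18 probes, in wild-type and in G181R mice; triangles mark lower bounds and dashed lines 2-fold. Lct, Treh, Alpi, Tmprss15, both Sis probes and Mme probes 2 to 4 lie left of the 2-fold line, and the Anpep, Dpp4, Enpep and Mgam probes lie between the lines.

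The second comparison asks whether these enzymes differ with the DAO genotype in jejunum. The differences were small. All 10 genes were measured, 6 were lower and 4 higher in G181R mice, none reached 2-fold or 1.5-fold, and the median difference was -0.18, beside -0.01 over all names. Of 21225 names, 51.6% were below 0, 1.51% differed at least 2-fold and 7.49% at least 1.5-fold. The lowest were Lct at -0.46 (1.38-fold lower), Sis at -0.38, Tmprss15 at -0.35, Alpi at -0.34 and Treh at -0.23. The second Sis probe stood at -0.66 (1.58-fold lower). Enpep and Dpp4 were the highest, at 0.20 and 0.19, with 0.48 at the second Dpp4 probe, and Mgam and Anpep were at 0.01, less than the spot error. The 4 Mme probes ranged from -0.42 to -0.10. As many as 7.07% of all names were at least as far down as Lct, the most distant of these genes.

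The third comparison asks the same of the ileum, where the differences were larger and ran in both directions. Alpi, Treh and Sis had lower signal in G181R than in wild-type ileum, each close to 2-fold, and Lct had higher signal. None of the 9 measured genes reached 2-fold at its brightest probe, against 5.21% of 21477 names. At 1.5-fold, 3 genes were lower and 1 higher, against 15.5% of names in either direction. The median was -0.18 with 6 genes below 0, beside a median of 0.03 and 46.7% below 0 over all names.

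Alpi lay just short of the 2-fold limit, at 1.999-fold lower (3096.6 in wild-type and 1468.0 in G181R ileum), and crossed it when the arrays were scaled in some other ways. Treh was 1.94-fold lower (2922.1 and 1424.0) and the brighter Sis probe 1.87-fold lower (24940.5 and 12619.7). Of all names, 3.21%, 3.51% and 3.94% lay at least as far down as Alpi, Treh and Sis. The second Sis probe was 3.51-fold lower, at 1921.1 and 518.3.

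Lct was 1.56-fold higher in G181R ileum, at 133.9 against 90.6, or 0.64 on the log2 scale. These are low signals on both arrays beside those of jejunum. Under normexp, a background correction that compresses differences between dim probes, the Lct difference was 0.40. Tmprss15 was not well above background in either ileal group and gives no fold.

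Among the peptidases, Enpep was at -0.27 with -0.47 at its second probe. Dpp4 was at -0.18, with -0.24 and 0.19 at its dimmer probes, which thus disagree in sign. Anpep at -0.02, Mgam at 0.02 and Mme probe 1 at 0.02 were within the spot error, and each took the other sign under some scaling of the arrays. Mme probes 2 and 3 were 2.84-fold and 2.79-fold lower in G181R ileum, and probe 4 at least 2.58-fold lower. The 4 Mme probes thus disagreed in this comparison too.

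**Figure D4:**
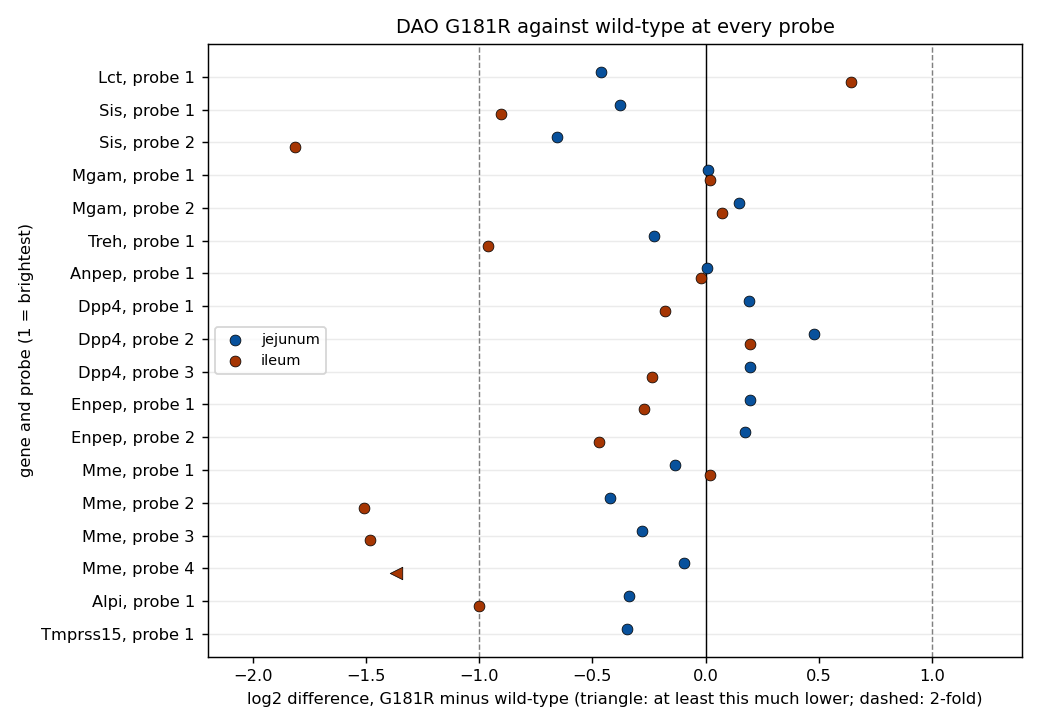
Log2 difference of G181R minus wild-type at each of the 18 probes, in jejunum and in ileum; the triangle is a bound and dashed lines mark 2-fold. Jejunal points lie between -0.66 and 0.48, while the second Sis probe and Mme probes 2 to 4 pass the 2-fold line on the left in ileum and Lct, at 0.64 in ileum, lies furthest to the right.

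Set against each other, the genotype differences were more negative in ileum than in jejunum for 6 of the 9 genes at their brightest probe. The share of all names with that direction was not computed, so the count is only a description. The ileal minus the jejunal value was -0.73 for Treh, -0.66 for Alpi, -0.53 for Sis, -0.47 for Enpep and -0.37 for Dpp4 on the log2 scale, while that for Anpep, -0.02, was within the spot error. The second Sis probe gave -1.16. For Lct it was 1.103, in the opposite direction, and Mgam, at 0.01, was within the spot error. Mme was at 0.15 at probe 1 and at -1.09 and -1.20 at probes 2 and 3. Dpp4, Enpep and Lct had opposite signs in jejunum and ileum at their brightest probes, but the second Dpp4 probe was above 0 in both, at 0.48 and 0.19. By construction the same numbers say how much the tissue difference of a gene differed between genotypes, and the 4 comparisons share their arrays, so they are not independent of each other. None of these differences has an error between mice.

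Markers of cell types give a frame for the ileal values. The 14 enterocyte markers had a median of -0.14 in ileum and -0.08 in jejunum between genotypes, and their summed level was 2090 in wild-type and 1950 in G181R ileum, 4750 and 4470 in jejunum. The smooth muscle list stood apart in ileum, with 9 of 12 genes at least 2-fold lower in G181R, a median of -2.44, and a summed level of 124 in wild-type and 54.4 in G181R ileum, against 78.7 and 78.6 in jejunum. Acta2, Actg2 and Mylk did not reach 2-fold in that comparison, at -0.19, -0.34 and -0.83. All 12 muscle genes were well above background on every array. Crypt and cycling markers had genotype medians of 0.44 in jejunum, with 10 of 10 above 0, and 0.24 in ileum, with 6 of 10 above 0, and none reached 2-fold in either tissue. The 4 below 0 in ileum were Lgr5, Olfm4, Ascl2 and Axin2, at -0.30 to -0.03, with Axin2 within the spot error. Smoc2, a further stem cell marker of the list, was above 0 there, at 0.17. The summed level of the list was 23.3 and 30.8 in jejunum and 51.7 and 63.3 in ileum. The part of these cell types in the enzyme differences was not tested. Relative to the enterocyte marker median, Alpi in ileum was at -0.86 in place of -0.999.

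Between tissues the enterocyte markers themselves were lower in ileum, with medians of -1.25 in wild-type and -1.44 in G181R mice and 8 of 14 genes at least 2-fold lower, led by Fabp1, a fatty acid binding protein, at -5.26 and -5.82. That is further down than the enzymes' own medians. The median crypt and cycling marker was at 1.35 and 1.22.

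The other peptidases of the brush border went both ways between tissues. Of 11 such genes, 9 were measured, and in wild-type mice 3 were at least 2-fold higher in ileum and 1 lower. Meprin alpha (Mep1a) had a signal of 6084.3 in wild-type jejunum and 40071.8 in wild-type ileum (log2 2.48), Naaladl1 was at 2.49 and the proline aminopeptidase Xpnpep2 at 1.95. The angiotensin-converting enzyme Ace was lower, at -3.19 in wild-type and -3.05 in G181R mice. In G181R mice 3 were higher and 3 lower, among the latter Ggt1, a gamma-glutamyl transferase, at -1.21. Between genotypes none reached 2-fold, and in ileum all 9 were below 0 with a median of -0.77. Cpm, a carboxypeptidase, was the lowest there at -0.998, just short of 2-fold, and at -0.56 in jejunum.

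The other brush border hydrolases of lipids and phosphate differed widely from gene to gene. Of 9 measured in both tissues, 4 were at least 2-fold lower in ileum and 1 higher in each genotype. Enpp3, a nucleotide pyrophosphatase, was at -6.65 in wild-type and -7.02 in G181R mice, the neutral ceramidase Asah2 at -4.85 and -3.72, and the alkaline sphingomyelinase Enpp7 at -2.63 and -3.02. The phospholipase Plb1 was the exception, at 4.77 and 6.01. Akp3, a paralogue of Alpi, was seen in jejunum only and was at least 8.09-fold lower in wild-type ileum and at least 7.86-fold lower in G181R ileum. Whether the probes of such paralogues, or of Slc5a4a and Slc5a4b below, read each other was not tested. In ileum, G181R mice had lower Nt5e, the 5′-nucleotidase, at -2.57, and higher Plb1 and Asah2, at 1.78 and 1.01. In jejunum no gene of this list reached 2-fold, with Nt5e the furthest at -0.76.

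The scaffold of the microvillus, which holds these enzymes in place, was far more even. Of 19 genes, 1 was higher in ileum of wild-type mice by 2-fold, Tmigd1, a small membrane protein of the enterocyte, at 7.19, and none lower. In G181R mice Tmigd1 was at 5.55, and Pdzk1 and Plekhg6 were lower at -2.12 and -1.08. The list medians were -0.38 and -0.46 between tissues, and -0.12 in jejunum and -0.29 in ileum between genotypes. The apical adaptor Pdzk1 was the only scaffold gene at least 2-fold lower in G181R ileum, at -1.43. In jejunum Tmigd1 was higher in G181R mice at 1.16.

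**Figure D5:**
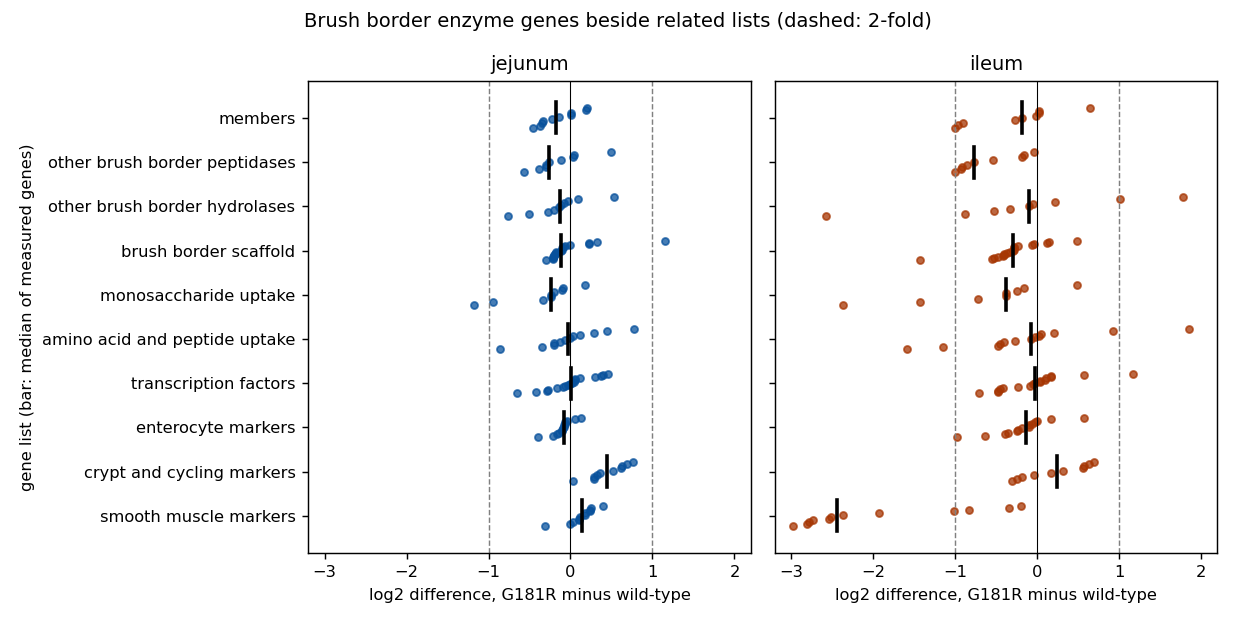
Log2 difference of G181R minus wild-type for each measured gene of the 10 enzymes (top row, called members) and of related lists, in jejunum (left) and ileum (right); bars mark medians and dashed lines 2-fold. The median of the smooth muscle markers lies left of the other medians in ileum, while single genes overlap with other lists. The enzymes have a median of -0.18 in both tissues.

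Transporters that take up the products of these enzymes also differed along the gut. For monosaccharides, 7 of 8 measured genes in wild-type mice and 9 of 9 in G181R mice were at least 2-fold lower in ileum, with medians of -3.02 and -3.88. Slc2a5, the fructose transporter, was at -3.74 and Slc2a7 at -4.59 in wild-type mice, and Slc2a2 at -6.40 in G181R mice. The Slc2a2 signal in G181R ileum, 6.92, was near the lowest that counted as well above background there, 6.11. In wild-type ileum Slc2a2 was not well above background and was at least 101-fold lower than in jejunum. The Slc2a7 signal in wild-type ileum was low too, at 11.2. Slc5a4a and Slc5a4b, relatives of the glucose carrier SGLT1, were lower in G181R mice as well, at -1.18 and -0.94 in jejunum and -2.36 and -1.43 in ileum. For amino acids and peptides, 7 of 12 measured genes were at least 2-fold lower in ileum and 1 higher in each genotype. Beyond these, Slc6a14 was seen in ileum only, at least 24.1-fold higher in wild-type and at least 113-fold higher in G181R mice. The carriers Slc7a8 (neutral amino acids), Slc36a1 (proton-coupled) and Slc16a10 (aromatic amino acids) were lowest. Slc7a8 was at -4.65 and -5.45, Slc36a1 at -3.38 and -3.23 and Slc16a10 at -2.77 and -3.04, while the glutamate carrier Slc1a1 was at 2.75 and 2.23. In G181R ileum the broad amino acid carrier Slc6a14 was higher at 1.86, and Slc6a20a, a proline carrier, and Slc7a8 were lower at -1.59 and -1.15. The largest value in jejunum was -0.86, for Slc6a20a.

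Among 18 transcription factors known to act on enterocyte genes, the medians were between -0.07 and 0.01 in all 4 comparisons, but single factors differed widely between tissues. In wild-type mice 5 of 17 measured were at least 2-fold lower in ileum and 2 higher. Onecut2 was at -8.00 and Gata4, a factor of the proximal small intestine, at -6.07, with signals of 1185.8 in wild-type jejunum and 20.9 in wild-type ileum. In G181R mice these values were -7.66 and -4.90. Creb3l3 was at -1.79 and -2.43, and Cdx1, higher in ileum, at 1.38 and 1.37. Gata4 was the only one that differed 2-fold between genotypes, at 1.17 in ileum, where both signals were low, and 0.00 in jejunum. Hnf4g was the furthest in jejunum, at -0.65, and was lower in ileum at -1.70 and -1.53. Of other members of the families whose words were searched in the promoters, Gata6 was at -1.22 and -0.96 between tissues, and Gata5, Hnf4a and Cdx2 differed by less than 2-fold in each comparison.

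The order of the 4 groups was the same for Sis, Treh and Alpi, namely wild-type jejunum, G181R jejunum, wild-type ileum and G181R ileum from high to low, with each step larger than the spot error. Lct had the jejunal groups in that order and the ileal groups in the opposite one. The share of all names with the order of Sis, Treh and Alpi was not computed, so that order is only a description. For Mgam and Anpep the genotypes within a tissue did not differ beyond the spot error, nor did the ileal genotypes at Mme probe 1. The patterns of the genes over the 4 arrays were compared by the distance between their log2 values after each was centred on its own mean. The comparison covered 12920 names of protein-coding genes measured on all arrays, with clone names and predicted models left out. Treh and Alpi were each other's closest gene among the 10, at a distance of 0.391, and Anpep and Mme probe 1 were another such pair, at 0.189. The names closest to Lct were Reg1, Cyp2b9 and Cyp2b10 (0.637, 1.27 and 1.37). Hhip, Rps6ka5 and Tbc1d24 were closest to Treh (0.100, 0.169 and 0.178), and Bche, Cbr1 and Cyp2c68 to Alpi (0.102, 0.133 and 0.136). Reg1 was at -9.08 between tissues in wild-type mice and at -0.15 between genotypes in ileum, so that it did not share the higher ileal signal of Lct in G181R mice. With 4 arrays many genes can lie this close.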

How the data were processed

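RNA of 5 pooled mice per group was measured on 1 array each. The deposited scanner files hold processed intensity values. The scanner software, named in the submitters' processing notes as Agilent Feature Extraction 11.5.1.1, subtracted background and corrected trends within each array, per the file headers. For each spot the deposited files also give flags, which take the value 0 or 1, for saturation and for signal well above background. The deposited value table holds log2 values; it matched the scanner signals for 95.8% of probes within 0.01, but 2356 probes, among them the Anpep probe and 1 of the Mgam probes, hold 1 fill value per array, so it served as an alternative. Control spots were left out and spots of a probe averaged. Values are log2 of the processed signal minus the 75th percentile of the array. A difference is given only between arrays on which the probe was flagged as well above background, and otherwise a bound. With 1 array per group no test was run, and genes are described by a 2-fold limit. The members and the 18 lists of related genes were chosen with earlier results of these data known. The genes named are all members at every probe, up to 4 genes per list and comparison with the largest difference of at least 2-fold (or the 1 furthest), and the 3 names nearest to each member that spans a log2 range of 2; Hnf4a, Cdx1, Cdx2, Gata5, Gata6, Olfm4, Ggt1 and Akp3 were added after their values were seen, and some listed genes are not reported here. Alternatives were normexp (limma 3.58.1 in R 4.3.3, offset 50), the mean of all probes of a gene, no background filter, 3 other scalings, the deposited table, a 1.5-fold limit and only names in the upper part of the signal range. Python 3.11.15 with pandas 2.3.3 was used, and the calculation was tested on simulated data. Probe positions are on mm9 as in the files, and promoters are from RefSeq on GRCm38.p6; positions were not converted between builds.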

Additional observations from a re-analysis of the deposited data

Results flagged for a closer look

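Some genotype differences (G181R minus wild-type, log2) had opposite signs in ileum and jejunum. Each rests on 1 array per group, and the difference between the tissues was not tested. Among the enzymes, Lct was at -0.46 in jejunum and 0.64 in ileum, a gap of 1.103. Dpp4 was at 0.19 and -0.18 at its brightest probe (gap -0.37) but at 0.48 and 0.19 at its second probe, and Enpep at 0.20 and -0.27 (gap -0.47). Among related genes, the ceramidase Asah2 was at -0.12 in jejunum and 1.01 in ileum (gap 1.13), Naaladl1 at 0.50 and -0.91 (gap -1.41), and the glutamate carrier Slc1a1 at 0.44 and -0.07 (gap -0.52). The sugar transporter Slc2a7 was at -0.10 and 0.48 (gap 0.58), and Tmigd1 at 1.16 and -0.48 (gap -1.64).

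The medians of some marker lists also had opposite signs between jejunum and ileum, which was likewise not tested. The ileal markers were at 0.18 in jejunum and -0.32 in ileum (gap -0.49), and the smooth muscle markers at 0.14 and -2.44 (gap -2.58). B cell markers were at -0.73 and 0.77 (gap 1.496), and T and NK lineage markers at -0.35 and 0.16 (gap 0.51). The pancreatic list was at 0.12 and -0.04, the latter within the spot error. Between tissues, the pancreatic list was at 0.08 in wild-type and -0.06 in G181R mice (gap -0.15), and the smooth muscle markers at 1.45 and -1.05 (gap -2.49).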

How the results depend on the processing

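No value of a gene past the 2-fold limit changed sign under any alternative run. The count of enzymes past 2-fold in G181R ileum was 0 and depended on the setting. It was 2 with the mean of all probes (Sis and Mme), 2 with quantile normalization (Treh and Alpi), 1 with the 75th percentile of probes above background on all arrays and 1 with the deposited table (Alpi in both), and 4 at 1.5-fold. The count in the wild-type tissue comparison was 3 in place of 4 with quantile normalization and with that percentile (Sis left), and 5 with the mean of all probes (Mme added), with no filter (Tmprss15 added) and at 1.5-fold (Mgam added); in G181R mice it was 4 or 5. The ileal genotype median was -0.37 with the mean of all probes. The wild-type tissue median was -0.77 with normexp, -1.40 with the mean of all probes, -0.96 with no background filter, -0.77 with quantile normalization and -0.80 with the other percentile. In G181R mice it was -0.79, -2.24, -1.22 and -0.79 under the first 4 of these and -1.20 with the deposited table. The deposited table leaves out Anpep, and no filter adds Tmprss15. With the mean of all probes, Mme was at -3.44 in wild-type and -4.30 in G181R mice between tissues. The tissue median there was the value of Sis, -1.40 and -2.24, in place of that of Mgam. The cause of the other shifts was not tested. Relative to the enterocyte marker median, an alternative chosen after seeing the data, the genotype medians were -0.10 in jejunum and -0.041 in ileum. Of 46 single values of enzymes, 7 took the other sign under some setting, all with a reported value within 0.2 of 0. Between genotypes in ileum these were Anpep, Mgam and Mme probe 1. In the gap between tissues they were Anpep and Mgam, and between tissues in G181R mice Enpep. The last was the gap of Mme, 0.15 at probe 1, which did so only with the mean of its 4 probes, at -0.85. No scaling moved the median of all names by more than 0.1. Among names above the 75th percentile of signal, 0.949%, 3.22%, 15.1% and 14.2% differed 2-fold in jejunal and ileal genotype and wild-type and G181R tissue comparisons. No paired analysis was possible because each group is 1 array. The number of arrays limits precision throughout, and dim signals such as Lct and Gata4 in ileum lie nearer background.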

Other observations

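Beneath and between the enterocytes, markers of other cell types differed between the groups as well. Fibroblast markers had medians of -0.26 in jejunum and -0.64 in ileum between genotypes, with Postn, a matrix protein, at -1.65 and Lum, a collagen-binding proteoglycan, at -1.13 in ileum. Adipocyte markers were at -0.46 and -1.05, with Car3 at -1.15 and Adipoq at -1.09 in ileum. Endothelial markers were at -0.03 and -0.16 and myeloid markers at 0.05 and 0.26. Between tissues the B cell markers were higher in ileum, at 1.65 in wild-type and 3.11 in G181R mice, with Ms4a1, the gene of CD20, at 2.26 and 4.92. The summed level of the 10 B cell markers was 2.93 and 1.93 times the 75th percentile in wild-type and G181R jejunum and 7.68 and 12.3 in wild-type and G181R ileum. The pancreatic list had medians of 0.12 in jejunum and -0.04 in ileum between genotypes.

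Cubn, the receptor for vitamin B12 with intrinsic factor and a brush border protein of the ileum, had signals of 3722.8 in wild-type jejunum, 1701.8 in G181R jejunum, 19294.5 in wild-type ileum and 2974.8 in G181R ileum. It was thus 6.15-fold lower in G181R than in wild-type ileum and 2.24-fold lower in jejunum, further than any of the 10 enzymes at its brightest probe.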
